A study of Mus musculus with 17 samples.

Results

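The 9 genes described here encode homeobox transcription factors that give the parts of the embryonic mouse forebrain their identity: Dlx1, Dlx2, Dlx5, Dlx6, Gsx2, Emx1, Emx2, Lhx2 and Otx2. They were chosen by name, with earlier results of these data known, from the 52850 gene symbols counted in 12 mouse RNA-seq libraries. The study asked how proteins made by fusing YAP to a partner drive supratentorial ependymoma, which arises in the upper part of the brain. YAP is a transcriptional co-activator that reaches DNA through partners of the TEAD family.

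Libraries fell into 4 groups. The 4 YAP-M libraries came from brain tumour tissue after in utero electroporation with YAP-M, a delivery of the construct into the embryonic brain; YAP-M is the labels' short name for a YAP fusion protein. The 3 YMdIDR libraries overexpressed YAP-MΔIDR, the same protein without its intrinsically disordered region. Their labels disagree: the source is brain tumor tissue, whereas the tissue entry names neural progenitor cells derived from ES (embryonic stem) cells. The 2 NSC-YAP libraries came from ES-derived neural progenitor cells overexpressing YAP, kept in neural stem cell medium with EGF, basic FGF and heparin. The 3 SVZ libraries are labelled wild-type and their titles read SVZ, although their tissue entry also reads brain tumor; the extraction protocol mentions normal brain. The promoter, the strain, the age of the animals and the number of animals or cultures are not stated in these sources, so p-values measure only the spread between these libraries, which may be technical. The other 5 of the 17 samples, made by chromatin profiling, were not analysed here.

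Total counts ran between 20784130 and 25463303 per library. Yap1 had 92.7 to 105 CPM (counts scaled to library size) in YAP-M, 238 to 241 CPM in NSC-YAP and 21.5 to 27.9 CPM in SVZ. In YMdIDR it had 183, 838 and 1274 CPM in replicates 1, 2 and 3. All 9 libraries labelled with a YAP construct thus stood above SVZ. The 6 macrophage and microglia markers summed to 1214 to 1911 CPM in YAP-M and 1487 to 1655 CPM in YMdIDR, against 42.3 to 43.8 CPM in NSC-YAP and 247 to 331 CPM in SVZ. The 6 endothelial markers summed to 244 to 357 CPM in YAP-M and 158 to 221 CPM in YMdIDR, against 22.2 to 23.1 CPM in NSC-YAP and 134 to 188 CPM in SVZ. On the macrophage and microglia markers the libraries labelled YMdIDR overlapped the YAP-M tumours; on the endothelial markers they lay below YAP-M and overlapped SVZ. On both they stood above the cultured NSC-YAP cells, which goes against their tissue entry. The 6 oligodendrocyte markers summed to 289 to 2714 CPM outside SVZ, against 23421 to 27960 CPM in SVZ. Mitochondrial genes took 4.91% to 7.05% of counts outside SVZ and 12.7% to 17.0% of counts in SVZ; the part of these differences in the results was not tested. The YMdIDR libraries were also the least alike: replicate 1 had Spearman correlations over genes of 0.963 and 0.964 with the others, which had 0.982 between them.

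The forebrain divides early into a dorsal part, the pallium, which makes the cortex and its glutamatergic neurons, and a ventral part, the ganglionic eminences, which make the striatum and GABAergic interneurons. Lhx2 and the EMX factors act in pallial progenitors, Gsx2 patterns the lateral ganglionic eminence, and the DLX factors act in sequence, Dlx1 and Dlx2 before Dlx5 and Dlx6, as ventral progenitors become GABAergic neurons. Otx2 is required for the forebrain and midbrain as a whole and later marks the choroid plexus. Ventral DLX activity continues after birth in the subventricular zone, which the name SVZ usually denotes, where neuroblasts for the olfactory bulb arise.

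The 4 DLX genes lie as 2 convergently organised pairs. In mm10, Dlx1 spans chr2:71528113-71533981 on the plus strand and Dlx2 chr2:71543408-71546754 on the minus strand, 9426 bases apart. Dlx6 spans chr6:6863334-6868568 on the plus strand and Dlx5 chr6:6877805-6882085 on the minus strand, 9236 bases apart. RefSeq windows of the 250 bases before the start site (build GRCm38.p6) were held for 7 of the 9 members, with 11 start sites in all. The window of Dlx2 is shown because its level parted from that of its neighbour Dlx1, and that of the first start site of Otx2 because this gene varied widely among replicates; both are on the minus strand and read 5′ to 3′. Capitals mark the only match in each to GGAATG, a TEAD motif, or TAATTA, a homeodomain motif, searched on both strands (the Dlx2 match, CATTCC, is GGAATG on the opposite strand; the motifs share no overlap in these windows).
Dlx2, chr2:71546755-71547004: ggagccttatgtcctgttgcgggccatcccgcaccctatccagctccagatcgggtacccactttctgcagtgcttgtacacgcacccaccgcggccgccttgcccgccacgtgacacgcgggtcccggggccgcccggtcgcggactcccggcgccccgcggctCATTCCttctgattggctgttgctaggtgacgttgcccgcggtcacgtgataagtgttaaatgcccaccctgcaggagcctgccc
Otx2, chr14:48667645-48667894: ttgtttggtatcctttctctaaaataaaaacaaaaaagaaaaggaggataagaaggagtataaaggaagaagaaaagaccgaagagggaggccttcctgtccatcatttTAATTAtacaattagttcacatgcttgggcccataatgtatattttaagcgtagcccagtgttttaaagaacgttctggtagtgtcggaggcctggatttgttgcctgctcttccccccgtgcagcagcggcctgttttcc
Of 32851 RefSeq windows of this length, 12.6% held GGAATG and 4.84% held TAATTA. Among the 11 windows of the members, GGAATG was found in that of Dlx2 and TAATTA in those of the first and the third start site of Otx2. The Dlx2 window held 24 CpG pairs and the Otx2 window shown held 6, with a median of 6 over all windows. A match is a run of letters and was not linked to binding here.

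Of the 4 DLX genes, Dlx1, Dlx5 and Dlx6 were low in every group but SVZ. Dlx1 had 1.88, 2.74, 4.48 and 1.19 CPM in the 4 YAP-M libraries, 1.20, 1.62 and 5.83 CPM in YMdIDR, 1.42 and 2.65 CPM in NSC-YAP, and 30.4, 37.5 and 36.8 CPM in SVZ. Every library outside SVZ lay below every SVZ library, and the other 3 groups overlapped. On the fitted scale Dlx1 fell by 3.77 ± 0.54 (log2 fold change ± SE) in YAP-M against SVZ, which is 13.6 times lower (adjusted p = 6.05e-05, edgeR's quasi-likelihood test with Benjamini-Hochberg adjustment). It fell by 3.60 ± 0.60 in YMdIDR (adjusted p = 1.94e-04) and by 4.09 ± 0.73 in NSC-YAP (adjusted p = 4.68e-04), both against SVZ; without YMdIDR replicate 3 the YMdIDR value was -4.62 (adjusted p = 2.81e-05). These are bulk samples, in which fewer cells of a type and less RNA per cell cannot be told apart.

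Dlx6, a later-acting gene of ventral cells, had 0.773, 0.815, 0.938 and 0.260 CPM in YAP-M, 0.214, 0.0901 and 0.177 CPM in YMdIDR, 2.52 and 2.28 CPM in NSC-YAP, and 18.2, 17.6 and 22.1 CPM in SVZ. No pair of groups overlapped, and the order was SVZ, NSC-YAP, YAP-M and YMdIDR. Dlx6 was 27.7 times lower in YAP-M than in SVZ (log2 fold change -4.79 ± 0.33, adjusted p = 2.72e-07) and 116 times lower in YMdIDR than in SVZ (log2 fold change -6.86 ± 0.44, adjusted p = 1.43e-07). The YAP-M libraries exceeded YMdIDR by 2.07 ± 0.45 on the log2 scale (adjusted p = 0.00414), on raw counts of 21, 22, 22 and 7 in YAP-M and 5, 2 and 4 in YMdIDR, so this difference rests on few reads. When these groups were fitted alone, Dlx6 did not pass the filter on low counts.

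Dlx5, the neighbour of Dlx6, followed the same order at lower counts. It had 0.442, 0.482, 0.512 and 0 CPM in YAP-M, 0.256, 0.135 and 0.0883 CPM in YMdIDR, 1.75 and 1.26 CPM in NSC-YAP, and 8.43, 9.66 and 10.8 CPM in SVZ. YAP-M and YMdIDR overlapped through YAP-M replicate 4, which had no Dlx5 count; a library's floor of 3 counts corresponds to 0.110 to 0.147 CPM, and such floors cover counting error only. Dlx5 fell by 4.74 ± 0.57 in YAP-M (adjusted p = 1.61e-05) and fell by 5.86 ± 0.71 in YMdIDR (adjusted p = 1.68e-05), both against SVZ. Between YAP-M and YMdIDR it was not called (log2 fold change 1.12 ± 0.76, adjusted p = 0.252); no library of these groups reached 1 CPM, and Dlx5 passed the filter only through SVZ and NSC-YAP. Over all 12 libraries Dlx5 and Dlx6 had a Pearson r of 0.996 in log2(CPM + 1), as a description of libraries that share their group differences.

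Dlx2, which acts with Dlx1 in ventral progenitors, did not follow the other DLX genes. It had 5.63, 6.89, 12.7 and 5.83 CPM in YAP-M, 16.5, 28.2 and 27.7 CPM in YMdIDR, 3.34 and 4.28 CPM in NSC-YAP, and 9.95, 13.0 and 12.02 CPM in SVZ. The YMdIDR libraries were above every other library, the NSC-YAP libraries below every other, and YAP-M overlapped SVZ through its replicate 3. In YAP-M against YMdIDR, Dlx2 fell by 1.64 ± 0.29 on the log2 scale, 3.11 times lower (adjusted p = 0.00133). Against SVZ, YAP-M was not called (log2 fold change -0.59 ± 0.29, adjusted p = 0.0849). YMdIDR rose against SVZ by 1.05 ± 0.31 (adjusted p = 0.00962), a fold that lay just past the limit of 1 and dropped to 0.94, 0.94 and 0.95 without YMdIDR replicate 2, YMdIDR replicate 3 or SVZ replicate 1. NSC-YAP fell against SVZ by 1.61 ± 0.38 (adjusted p = 0.00290).

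The DLX genes together had a different make-up by group. Dlx2 took 63.1% to 80.1% of the counts of the 4 DLX genes in YAP-M libraries and 82.0% to 93.9% in YMdIDR, against 36.9% to 40.9% in the NSC-YAP libraries and 14.7% to 16.8% in SVZ. Summed over the 4 genes, the level was 7.27 to 18.6 CPM in YAP-M, 18.2 to 33.8 CPM in YMdIDR, 9.04 to 10.5 CPM in NSC-YAP and 67.0 to 81.8 CPM in SVZ. Within each library the log2 ratio of Dlx2 to Dlx1 counts averaged 1.67 ± 0.42 in YAP-M (SD, n = 4), 3.37 ± 0.99 in YMdIDR (SD, n = 3), 0.95 ± 0.37 in NSC-YAP (SD, n = 2) and -1.58 ± 0.05 in SVZ (SD, n = 3). The sign was positive in all 9 libraries outside SVZ and negative in all 3 SVZ libraries. Comparing YAP-M with SVZ, the ratio differed by 3.25 (two-sided exact permutation test, p = 0.0286, the smallest that 4 against 3 libraries can give). After adjustment over the 18 ratio tests the p was 0.225. At these group sizes no ratio could have passed that adjustment, so it decides nothing about the ratios. Dlx6 to Dlx5 ratios averaged 1.57 ± 1.56 in YAP-M (SD, n = 4) and 1.00 ± 0.13 in SVZ (SD, n = 3) and overlapped (exact permutation p = 1, adjusted p = 1).

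**Figure D1:**
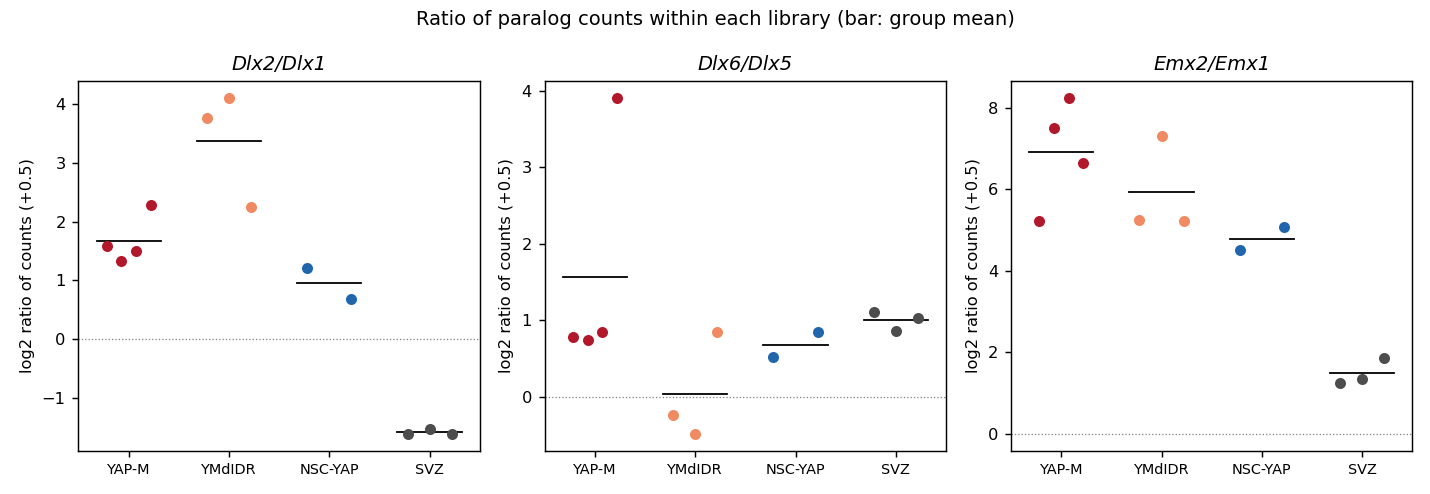
Log2 ratio of raw counts (0.5 added to each) of Dlx2 to Dlx1, Dlx6 to Dlx5 and Emx2 to Emx1; each point is a library, bars are group means, and the dotted line marks equal counts. Dlx2 exceeds Dlx1 in every library outside SVZ, whereas in SVZ the mean log2 ratio is -1.58.

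Genes of striatal neurons and of GABA signalling were also lower against SVZ. The 8 striatal markers summed to 31.4 to 76.5 CPM in YAP-M, 9.10 to 27.7 CPM in YMdIDR, 16.0 to 16.6 CPM in NSC-YAP and 1861 to 2117 CPM in SVZ, and all 8 were called lower against SVZ in each of the 3 other groups. Every marker was detected in each group, except Tac1, which had no count in NSC-YAP. Against SVZ, 28.9% of all tested genes were lower in YAP-M, 29.6% in YMdIDR and 27.6% in NSC-YAP. Of the 8 genes of the GABAergic list, all 8 fell in YAP-M against SVZ and all 8 in YMdIDR against SVZ; the part of these cells in the DLX differences was not tested. Gad1, which makes GABA, averaged 22.9 CPM in YAP-M, 4.83 CPM in YMdIDR, 52.4 CPM in NSC-YAP and 320 CPM in SVZ. In YAP-M against YMdIDR, 5 of the 8 GABA genes rose and none fell: Gad1 by 2.24 ± 0.43 (adjusted p = 0.00199), Gad2 by 3.11 ± 0.54 (adjusted p = 0.00112) and the vesicular GABA transporter Slc32a1 by 2.55 ± 0.52 (adjusted p = 0.00285) on the log2 scale, whereas Dlx2 fell in that comparison. There, 9.61% of all tested genes were higher and 6.78% lower. Of the 8 striatal markers, 5 were also higher in that comparison and none was lower. Neuroblast markers differed among themselves: Sox11 had 46.5 to 134 CPM in YAP-M, 195 to 255 CPM in YMdIDR, 115 to 122 CPM in NSC-YAP and 50.7 to 56.2 CPM in SVZ. Dcx, another neuroblast gene, had 4.78 to 5.80 CPM in YAP-M, 1.50 to 2.48 CPM in YMdIDR, 52.2 to 58.4 CPM in NSC-YAP and 33.8 to 41.4 CPM in SVZ.

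Gsx2, the patterning factor of the lateral ganglionic eminence, was counted too rarely to pass the filter and was not tested. It had 1, 0, 2 and 0 reads in YAP-M, no read in the 3 YMdIDR and the 2 NSC-YAP libraries, and 6, 12 and 9 reads in SVZ. Each SVZ library exceeded every other library. Pooled over a group, Gsx2 was 14.6 times lower in YAP-M than in SVZ (95% counting interval 4.50 to 75.2), from 3 and 27 reads. Against a group floor of 3 reads it was at least 9.53-fold lower in YMdIDR and at least 6.86-fold lower in NSC-YAP than in SVZ; the intervals and floors cover counting error only.

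**Figure D2:**
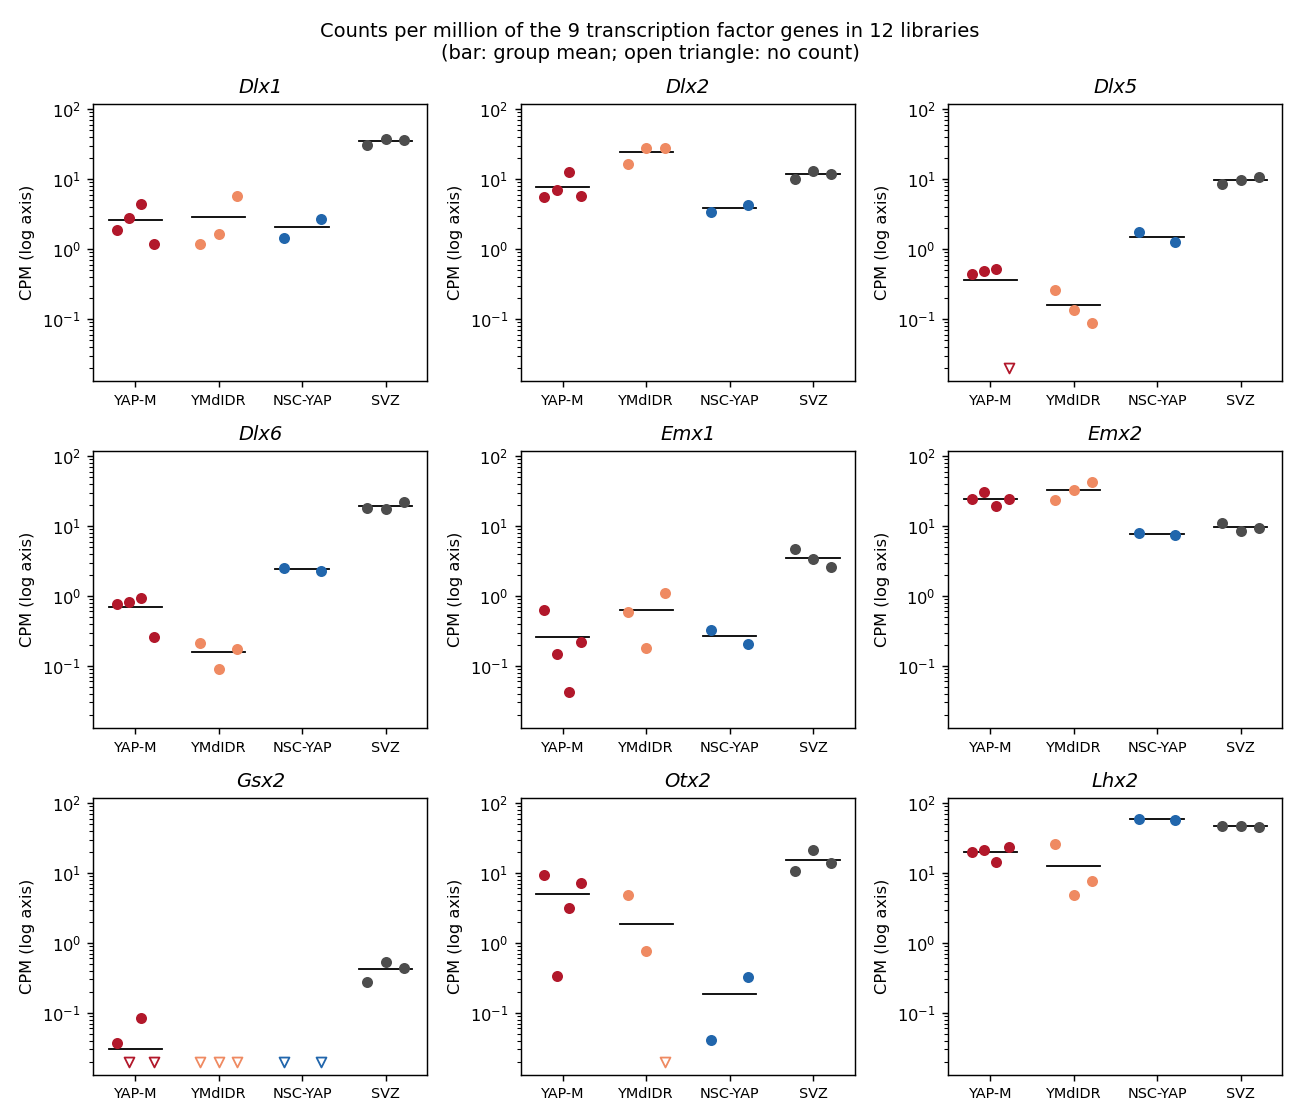
Levels in CPM (log axis) of the 9 genes in each library, by group; points are libraries, bars are group means, and open triangles mark libraries with no count, drawn at the bottom of the axis. Dlx1, Dlx5, Dlx6, Emx1 and Gsx2 are highest in SVZ, Dlx2 is highest in YMdIDR, Emx2 is higher in YAP-M and YMdIDR, which overlap, than in the other groups, and Otx2 and Lhx2 spread within YMdIDR.

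Of the EMX pair of the pallium, Emx2 was higher in YAP-M and in YMdIDR than in SVZ. Emx1 was lower there, but it passed the filter only through SVZ, the group where it is high. Emx2, a graded regulator of cortical progenitors, had 24.1, 30.4, 19.4 and 24.3 CPM in YAP-M, 23.4, 32.3 and 42.3 CPM in YMdIDR, 7.86 and 7.50 CPM in NSC-YAP, and 11.1, 8.54 and 9.53 CPM in SVZ. Every library of YAP-M and YMdIDR lay above every library of NSC-YAP and SVZ. Emx2 rose in YAP-M by 1.33 ± 0.21 against SVZ (adjusted p = 1.33e-04) and by 1.68 ± 0.25 against NSC-YAP (adjusted p = 1.08e-04), on the log2 scale. It rose in YMdIDR by 1.75 ± 0.22 against SVZ (adjusted p = 2.49e-05). YAP-M against YMdIDR (log2 fold change -0.41 ± 0.20, adjusted p = 0.114) and NSC-YAP against SVZ (-0.34 ± 0.25, adjusted p = 0.250) were not called.

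Emx1, the other pallial EMX factor, also made by cortical glutamatergic neurons, was low wherever Emx2 was high and in the cultured cells too. It had 0.625, 0.148, 0.0426 and 0.223 CPM in YAP-M, 0.598, 0.180 and 1.10 CPM in YMdIDR, 0.326 and 0.204 CPM in NSC-YAP, and 4.65, 3.33 and 2.59 CPM in SVZ. SVZ stood above all other libraries, which overlapped among themselves. The log2 fold change of Emx1 against SVZ was -3.71 ± 0.65 in YAP-M (adjusted p = 2.73e-04), -2.48 ± 0.67 in YMdIDR (adjusted p = 0.00510) and -3.71 ± 0.86 in NSC-YAP (adjusted p = 0.00267). Between YAP-M and YMdIDR it was not called (-1.23 ± 0.70, adjusted p = 0.172). In these groups 1 library reached 1 CPM, and Emx1 passed the filter only through SVZ. The falls of Emx1 against SVZ therefore add no support to a contrast with Emx2. Without YAP-M replicate 1 the value in YAP-M against SVZ was -4.50, and without YMdIDR replicate 3 the value in YMdIDR against SVZ was -3.15. The log2 ratio of Emx2 to Emx1 counts averaged 6.91 ± 1.30 in YAP-M (SD, n = 4), 5.93 ± 1.20 in YMdIDR (SD, n = 3), 4.79 ± 0.40 in NSC-YAP (SD, n = 2) and 1.49 ± 0.33 in SVZ (SD, n = 3); for YAP-M against SVZ the exact permutation p was 0.0286 and 0.225 after adjustment over the 18 tests. The 6 neuron markers summed to 247 to 563 CPM in YAP-M, 88.0 to 376 CPM in YMdIDR, 716 to 784 CPM in NSC-YAP and 5359 to 5576 CPM in SVZ, and their part in the Emx1 difference was not tested.

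Lhx2, a selector of cortical fate that also acts in neural stem cells, was the member with the highest level per kilobase in cultured cells and in SVZ. It had 20.2, 21.3, 14.4 and 23.5 CPM in YAP-M, 25.9, 4.86 and 7.59 CPM in YMdIDR, 59.8 and 56.7 CPM in NSC-YAP, and 47.2, 47.1 and 46.0 CPM in SVZ. YAP-M and YMdIDR lay below the other 2 groups, and within YMdIDR replicate 1 stood above the rest. Lhx2 fell in YAP-M by 1.23 ± 0.42 against SVZ (adjusted p = 0.0189) and by 1.55 ± 0.46 against NSC-YAP (adjusted p = 0.0104). The call against SVZ was lost without YAP-M replicate 3 (-1.003, adjusted p = 0.0674), SVZ replicate 1 (-1.18, adjusted p = 0.0522) or SVZ replicate 2 (-1.18, adjusted p = 0.0524), and with total counts in place of TMM scaling (-0.89, adjusted p = 0.0743). The call against NSC-YAP was lost without NSC-YAP replicate 1 (-1.49, adjusted p = 0.0534). Lhx2 fell in YMdIDR by 1.87 ± 0.47 against SVZ (adjusted p = 0.00350), with values of -2.90 without YMdIDR replicate 1 (adjusted p = 1.32e-06) and -1.45 without YMdIDR replicate 2. YAP-M and YMdIDR were not told apart over all libraries (0.63 ± 0.44, adjusted p = 0.261), whereas without YMdIDR replicate 1 Lhx2 rose in YAP-M by 1.67 (adjusted p = 2.74e-04).

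Otx2, needed early for the forebrain and midbrain and later for the choroid plexus, had the widest spread within YAP-M among the tested members with a count in each library. It had 9.46, 0.333, 3.20 and 7.27 CPM in YAP-M, 4.83, 0.766 and 0 CPM in YMdIDR, 0.0407 and 0.326 CPM in NSC-YAP, and 10.7, 21.0 and 13.9 CPM in SVZ. SVZ stood above every other library, NSC-YAP was near the floor, and within YAP-M the highest library exceeded the lowest 28.4 times. Otx2 fell in NSC-YAP by 6.33 ± 1.81 against SVZ (adjusted p = 0.00934), a call lost without NSC-YAP replicate 1 (-5.49, adjusted p = 0.0780), while without NSC-YAP replicate 2 the value was -8.36. It was not called in YAP-M against SVZ (-1.58 ± 1.01, adjusted p = 0.168) although no YAP-M library reached the SVZ range. It fell in YMdIDR by 3.02 ± 1.18 against SVZ (adjusted p = 0.0354), a call lost without YMdIDR replicate 2 or 3 (-2.62 and -2.43, adjusted p = 0.0983 and 0.0647), without SVZ replicate 1, 2 or 3 (-3.20, -2.69 and -3.06, adjusted p = 0.0506, 0.0913 and 0.0613) and with DESeq2 (-2.99, adjusted p = 0.0543); without YMdIDR replicate 1 the value was -5.30 (adjusted p = 0.00432). Over NSC-YAP, YAP-M was higher by 4.75 ± 1.74 (adjusted p = 0.0281), a call lost without YAP-M replicate 1 (4.27, adjusted p = 0.0505) or NSC-YAP replicate 1 or 2 (3.96 and 6.77, adjusted p = 0.153 and 0.0795). Without YMdIDR replicate 1, Otx2 rose in YAP-M against YMdIDR by 3.72 (adjusted p = 0.0374), against 1.43 ± 1.10 over all libraries (adjusted p = 0.311).

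Choroid plexus markers differed among the same libraries. Transthyretin (Ttr), the main secreted protein of that epithelium, had 259, 1.74, 0.682 and 217 CPM in YAP-M, 653, 60.7 and 7.02 CPM in YMdIDR, 0 and 0.0408 CPM in NSC-YAP, and 907, 2254 and 2106 CPM in SVZ. YAP-M replicates 1 and 4 were thus the highest YAP-M libraries in both genes, and YMdIDR replicate 1 the highest of YMdIDR in both. In YAP-M replicate 3, by contrast, Otx2 had 3.20 CPM where Ttr had 0.682 CPM. Folr1, another gene of the marker list, was ordered differently, with 30.6, 18.4, 39.0 and 18.7 CPM in YAP-M, 21.2, 13.8 and 44.6 CPM in YMdIDR, 0.163 and 0.285 CPM in NSC-YAP, and 8.93, 20.8 and 20.0 CPM in SVZ. The 9 markers summed to 45.6 to 327 CPM in YAP-M, 70.0 to 718 CPM in YMdIDR, 1.42 to 1.47 CPM in NSC-YAP and 980 to 2447 CPM in SVZ. All 9 were detected in YAP-M, YMdIDR and SVZ and 7 in NSC-YAP, where Kl and Clic6 had no count. Their part in the Otx2 differences was not tested.

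**Figure D3:**
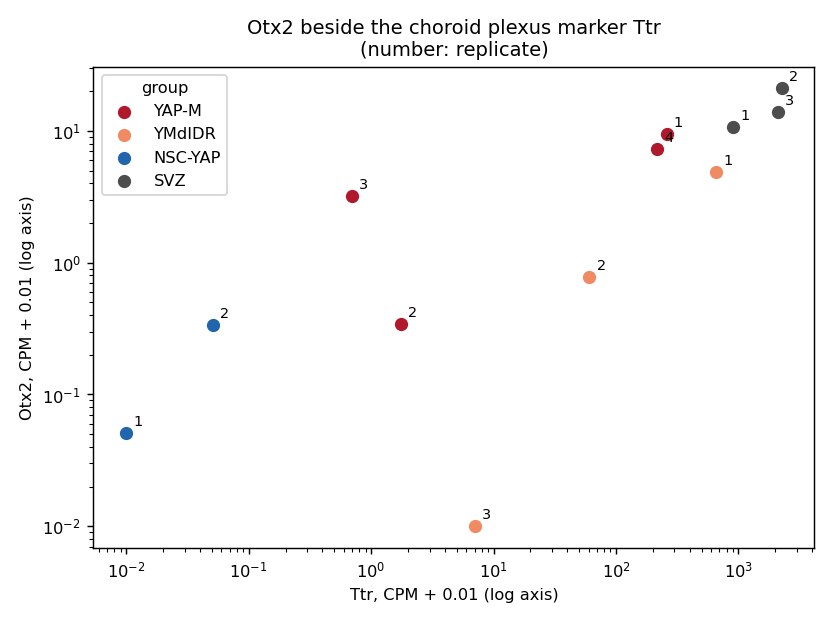
Otx2 against the choroid plexus marker Ttr, both in CPM with 0.01 added on log axes; each point is a library, coloured by group and numbered by replicate. SVZ libraries are at the top right, NSC-YAP libraries have at most 0.0408 CPM of Ttr, and YAP-M replicates 2 and 3 have under 2 CPM of Ttr with 0.333 and 3.20 CPM of Otx2.

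Within a group, levels of the members were compared per kilobase of gene length in the files. In YAP-M, Emx2 was highest at 8.17 ± 1.50 CPM per kilobase (SD, n = 4), followed by Lhx2 at 4.52 ± 0.88 and Dlx2 at 2.72 ± 1.17. In YMdIDR the order began with Emx2 at 10.9 ± 3.15 and Dlx2 at 8.46 ± 2.32, whose spreads overlap (SD, n = 3). NSC-YAP began with Lhx2 at 13.3 ± 0.50, followed at some distance by Emx2 at 2.56 ± 0.08 (SD, n = 2). SVZ began with Lhx2 at 10.6 ± 0.15, Dlx6 at 8.13 ± 1.04 and Dlx1 at 6.47 ± 0.73, the last 2 separated by less than the sum of their SDs (SD, n = 3). Emx2, first in YAP-M and YMdIDR, ranked 7 of 9 in SVZ at 3.24 ± 0.44 CPM per kilobase.

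Counted over the 8 tested members, 1 rose (Emx2) and 5 fell (Dlx1, Dlx5, Dlx6, Emx1 and Lhx2) in YAP-M against SVZ, where 54.7% of all 18329 tested genes were called, 25.8% higher and 28.9% lower. A gene was called when its adjusted p was under 0.05 and its log2 fold change at least 1 in size. The members' median log2 fold change was -2.65, against -0.04 over all tested genes. In YMdIDR against SVZ, 2 rose (Dlx2 and Emx2) and the other 6 fell, where 56.5% of all genes were called, 26.9% higher and 29.6% lower. NSC-YAP against SVZ had no member higher and 6 lower (all but Emx2 and Lhx2), with 45.1% of all genes called, 17.5% higher and 27.6% lower. The groups did not overlap for 7 of the 8 members in YAP-M against SVZ, for all 8 in YMdIDR against SVZ and for all 8 in NSC-YAP against SVZ, where 80.8%, 81.1% and 84.6% of all tested genes did not overlap. These comparisons share the SVZ libraries, so their counts are not independent. Emx1, counted as lower in each of them, passed the filter only through SVZ, the group where it is high. Its fall therefore adds no support to these counts or to the members' median.

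YAP-M against NSC-YAP gave 3 members higher (Dlx2, Emx2 and Otx2) and 3 lower (Dlx5, Dlx6 and Lhx2), where 50.4% of all genes were called, 28.9% higher and 21.6% lower. Dlx2 in that comparison was barely past the limit (1.02 ± 0.36, adjusted p = 0.0231), and the 3 members higher became 1 without NSC-YAP replicate 1 or without NSC-YAP replicate 2; the 3 lower became 1 without NSC-YAP replicate 1. YMdIDR against NSC-YAP gave 2 higher (Dlx2 by 2.66 ± 0.39 and Emx2 by 2.09 ± 0.26) and 3 lower (Dlx5, Dlx6 and Lhx2), where 47.8% were called, 27.4% higher and 20.4% lower. YAP-M against YMdIDR differed least: 1 member rose (Dlx6), 1 fell (Dlx2) and 6 were not called, with 16.4% of all genes called, 9.61% higher and 6.78% lower. The groups did not overlap for 6 of the 8 members in YAP-M against NSC-YAP, for 5 in YMdIDR against NSC-YAP and for 2 in YAP-M against YMdIDR, where 81.3%, 79.3% and 41.3% of all tested genes did not overlap. The count of members higher there was 2 without YAP-M replicate 4 and 3 without YMdIDR replicate 1, and the count lower was 2 without YAP-M replicate 1; of these, the added Dlx5 and Emx1 passed the filter only through other groups. In each comparison the share of members called can be read only against these backgrounds, which are high everywhere except between YAP-M and YMdIDR. With total counts in place of TMM scaling, the median of all genes moved by 0.34 in YAP-M against SVZ, and the genes called split into 5963 higher and 4377 lower in place of 4722 and 5296. In YAP-M against YMdIDR that scaling gave 2184 higher and 915 lower in place of 1761 and 1242. No called member changed sign under any scaling tried.

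**Figure D4:**
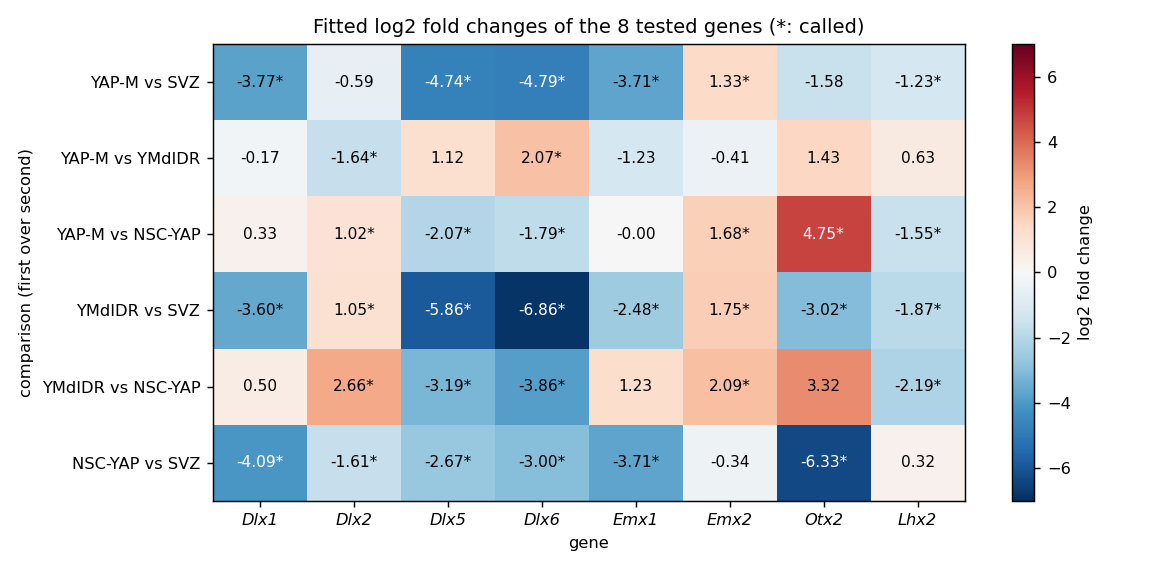
Fitted log2 fold changes (first group over second) of the 8 tested members in the 6 comparisons, coloured red where higher and blue where lower in the first group; an asterisk marks a called difference. The 3 comparisons against SVZ are blue for Dlx1, Dlx5, Dlx6, Emx1 and Otx2, and the row of YAP-M over YMdIDR has 2 asterisks, on Dlx2 and Dlx6.

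Antisense RNAs at the member loci were also counted. Dlx6os1, a long RNA that spans Dlx6 on the opposite strand and overlaps it by 5235 bases, had 0.0742 to 0.405 CPM in YAP-M, 0.0450 to 0.221 CPM in YMdIDR, 0.896 to 1.35 CPM in NSC-YAP and 17.7 to 24.0 CPM in SVZ. It was 64.2 times lower in YAP-M than in SVZ (log2 fold change -6.00 ± 0.41, adjusted p = 2.71e-07). Dlx1as, which overlaps all 5869 bases of Dlx1, averaged 0.354 CPM in YAP-M, 0.176 CPM in YMdIDR, 0.896 CPM in NSC-YAP and 1.41 CPM in SVZ, and fell in YAP-M against SVZ by 1.98 ± 0.39 (adjusted p = 6.63e-04). Dlx6os1 and Dlx1as passed the filter only through SVZ, the group where they are high. Their falls against SVZ therefore add no support to those of the DLX genes. No source used here states whether counting used strand, so reads of these RNAs and of their partners cannot be told apart. Emx2os, which overlaps Emx2 by 264 bases, did not follow Emx2: it averaged 1.55 CPM in YAP-M, 3.25 CPM in YMdIDR, 2.44 CPM in NSC-YAP and 2.20 CPM in SVZ. It was not called in YAP-M against SVZ (-0.50 ± 0.30, adjusted p = 0.145) and fell in YAP-M against YMdIDR by 1.06 ± 0.30 (adjusted p = 0.0141). Otx2os1, which starts 1643 bases from Otx2, did not pass the filter, with 3 reads in YAP-M, 3 in YMdIDR, none in NSC-YAP and 39 in SVZ.

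Other regional transcription factors showed both losses and gains. Counts for this and the following lists can be read only against the shares of all tested genes. Those shares were 25.8% higher and 28.9% lower in YAP-M against SVZ, and 26.9% and 29.6% in YMdIDR against SVZ. NSC-YAP against SVZ had 17.5% and 27.6%, and YAP-M against YMdIDR had 9.61% and 6.78%. Against NSC-YAP they were 28.9% and 21.6% in YAP-M, and 27.4% and 20.4% in YMdIDR. Of 10 tested factors of the dorsal telencephalon, 2 rose and 7 fell in YAP-M against SVZ, 2 and 7 in YMdIDR against SVZ, and 3 and 5 in NSC-YAP against SVZ; none was called between YAP-M and YMdIDR. Dmrta2, a factor of the pallial midline and cortical progenitors, averaged 37.1 CPM in YAP-M, 59.2 CPM in YMdIDR, 20.8 CPM in NSC-YAP and 2.58 CPM in SVZ, and rose in YAP-M against SVZ by 3.84 ± 0.23 (adjusted p = 9.60e-08). Neuronal factors of the list were lower: Tbr1, of deep-layer cortical neurons, fell by 3.62 ± 0.47 in YAP-M (adjusted p = 3.15e-05), and Bcl11b, of deep-layer and striatal neurons, by 5.22 ± 0.29 (adjusted p = 6.79e-08), both against SVZ. Against NSC-YAP, 3 rose and 3 fell in YAP-M, and 4 rose and 4 fell in YMdIDR.

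All 12 factors of the ventral telencephalon list were tested. In YAP-M against SVZ, 1 rose and 5 fell; in YMdIDR against SVZ none rose and 10 fell; in NSC-YAP against SVZ 1 rose and 8 fell. Sp9, a factor of striatal neuron development, averaged 0.647 CPM in YAP-M, 0.217 CPM in YMdIDR, 9.98 CPM in NSC-YAP and 16.2 CPM in SVZ, and fell by 4.64 ± 0.41 in YAP-M against SVZ (adjusted p = 1.58e-06). Between YAP-M and YMdIDR, 4 of the 12 rose and none fell: Lhx8, a factor of cholinergic neurons, rose by 2.90 ± 0.50 (adjusted p = 0.00111), Isl1, of striatal projection neurons, by 3.23 ± 0.72 (adjusted p = 0.00546), Ebf1, also striatal, by 1.52 ± 0.38 (adjusted p = 0.00799), and Sp9 by 1.53 ± 0.54 (adjusted p = 0.0398). Isl1 averaged 0.738 CPM in YAP-M and 0.0720 CPM in YMdIDR, so its rise rests on few reads. So does that of Sp9, with 0.260 to 0.993 CPM in YAP-M and 0.0883 to 0.427 CPM in YMdIDR. YAP-M and YMdIDR overlapped for Sp9 and for Ebf1. Against NSC-YAP, 6 rose and 4 fell in YAP-M, and 3 rose and 4 fell in YMdIDR.

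Of 6 tested factors of the anterior neural plate, none rose and 4 fell in YAP-M against SVZ and likewise in YMdIDR against SVZ, and 2 rose and 2 fell in NSC-YAP against SVZ. Sox2, the neural stem cell factor, averaged 25.2 CPM in YAP-M, 9.94 CPM in YMdIDR, 488 CPM in NSC-YAP and 84.4 CPM in SVZ, and fell in YAP-M against SVZ by 1.74 ± 0.24 (adjusted p = 4.19e-05). Six3 fell by 3.43 ± 0.94 (adjusted p = 0.00553) and Tcf7l2 by 1.79 ± 0.15 (adjusted p = 1.12e-06) in that comparison. Otx1, the paralog of Otx2, was not called in YAP-M against SVZ (-0.16 ± 0.36, adjusted p = 0.690) and rose in YAP-M against YMdIDR by 1.48 ± 0.39 (adjusted p = 0.0105); Sox2 rose there by 1.34 ± 0.25 (adjusted p = 0.00177), and none of the 6 fell. Against NSC-YAP, 2 rose and 2 fell in YAP-M, and 1 rose and 3 fell in YMdIDR.

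Factors of the midbrain and hindbrain were not uniformly low. Of 9 tested, 4 rose and 2 fell in YAP-M against SVZ, 4 and 2 in YMdIDR against SVZ, and 4 and 0 in NSC-YAP against SVZ. Hoxa2 and Hoxb2 were among those that rose in YAP-M, at means of only 0.585 and 0.163 CPM. Pax3, a factor of the dorsal neural tube and midbrain, had 29.1, 35.9, 17.0 and 36.3 CPM in YAP-M, 29.1, 27.2 and 19.6 CPM in YMdIDR, no count in NSC-YAP, and 0.184, 0 and 0.0977 CPM in SVZ. It rose in YAP-M against SVZ by 8.23 ± 0.54 (adjusted p = 4.03e-07), and YAP-M overlapped YMdIDR. Hoxa2, a hindbrain HOX gene, had 0.482 to 0.640 CPM in YAP-M, 0.631 to 1.19 CPM in YMdIDR, 4.23 to 4.57 CPM in NSC-YAP and no count in SVZ; the YAP-M level is under 1 CPM. Hoxb2 averaged 0.163 CPM in YAP-M and 2.00 CPM in YMdIDR, with no count in NSC-YAP or SVZ. It was the only member of the list called between YAP-M and YMdIDR (-3.58 ± 0.68, adjusted p = 0.00404). Only YMdIDR replicates 1 and 2 reached 1 CPM (2.05 and 3.47 CPM), so Hoxb2 passed the filter through the group where it is high. This call and its rises in YMdIDR against SVZ and NSC-YAP therefore add no support. Gbx2 fell by 2.96 ± 0.59 in YAP-M against SVZ (adjusted p = 6.98e-04). Against NSC-YAP, 3 rose and 4 fell in YAP-M, and 3 rose and 5 fell in YMdIDR.

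Relatives of the members in the DLX, OTX, LIM-homeobox and VAX families were tested where they passed the filter, 13 of 18. In YAP-M against SVZ, 3 rose and 2 fell; the factor of motor neurons Isl2 averaged 3.36 CPM in YAP-M and 0.0150 CPM in SVZ, and the ventral eye factor Vax2 averaged 8.49 CPM in YAP-M with no count in SVZ. In that comparison Isl1 fell by 4.03 ± 0.47 (adjusted p = 2.05e-05). Isl1 passed the filter only through SVZ, the group where it is high, so its falls against SVZ add no support. In YMdIDR against SVZ, 3 rose and 7 fell, and in NSC-YAP against SVZ 5 rose and 6 fell. YAP-M against YMdIDR gave 5 higher and 1 lower: Lhx9, a close relative of Lhx2, averaged 14.6 CPM in YAP-M, 68.6 CPM in YMdIDR, 0.224 CPM in NSC-YAP and 16.6 CPM in SVZ, and fell by 2.23 ± 0.36 in YAP-M against YMdIDR (adjusted p = 7.70e-04). Lhx1 rose there by 3.33 ± 0.52 (adjusted p = 6.06e-04), on few reads, with means of 1.21 CPM in YAP-M and 0.115 CPM in YMdIDR. Lhx9 was highest in YMdIDR and lowest in NSC-YAP, whereas Lhx2 was highest in NSC-YAP and lower in YMdIDR and YAP-M, which overlapped. Against NSC-YAP, 5 rose and 4 fell in YAP-M, and 2 rose and 6 fell in YMdIDR.

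All genes of the LIM cofactor list were tested. Some of their proteins bind the LIM domains of Lhx2 and its relatives or compete for their partners. Of the 8, none rose and 6 fell in YAP-M against SVZ, none rose and 5 fell in YMdIDR against SVZ, and 2 rose and 3 fell in NSC-YAP against SVZ. Lmo3 fell by 3.89 ± 0.32 (adjusted p = 9.90e-07), Lmo4 by 1.15 ± 0.12 (adjusted p = 4.03e-06) and Ssbp3 by 1.28 ± 0.10 (adjusted p = 6.91e-07) in YAP-M against SVZ. In YAP-M against YMdIDR, 2 rose, Lmo3 by 2.01 ± 0.36 (adjusted p = 0.00130) and Ssbp2 by 1.60 ± 0.19 (adjusted p = 1.45e-04). Against NSC-YAP, 1 rose and 6 fell in YAP-M, and likewise in YMdIDR. For the GABA list, 6 of 8 fell in NSC-YAP against SVZ with none higher, and against NSC-YAP 4 rose and 3 fell in YAP-M and likewise in YMdIDR.

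**Figure D5:**
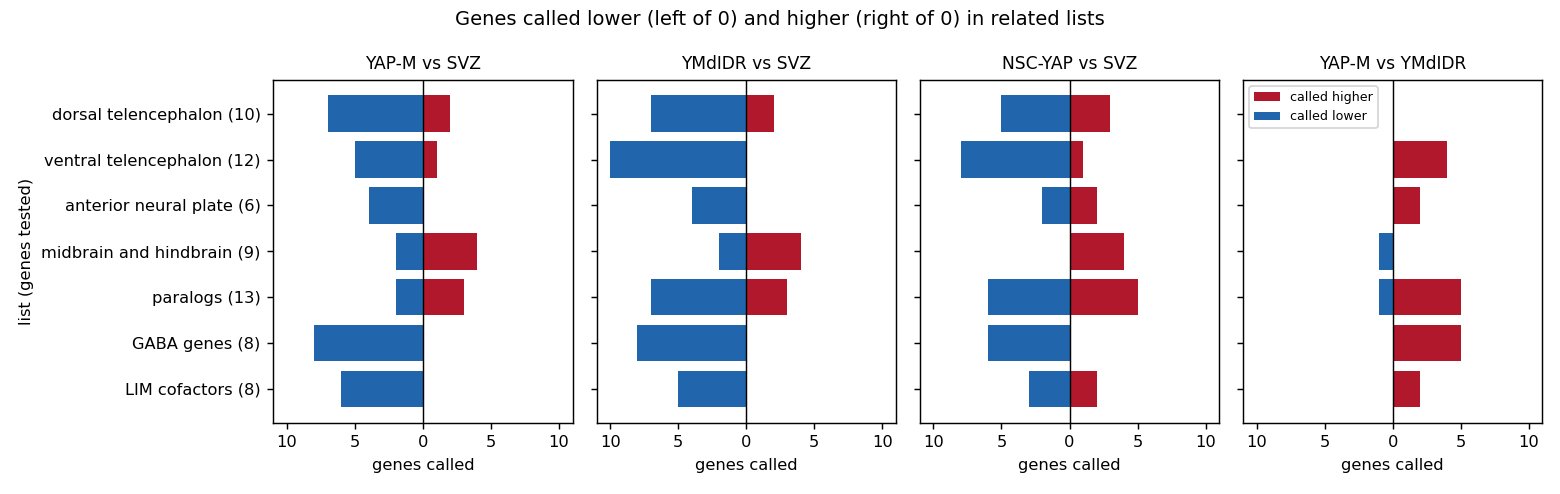
Number of genes called higher (red, right of 0) and lower (blue, left of 0) in 7 lists of related genes, in 4 of the 6 comparisons; the number of genes tested stands beside each list name. All 8 GABA genes are lower in YAP-M and in YMdIDR against SVZ, whereas 5 of them are higher in YAP-M against YMdIDR. Of all tested genes, 28.9% are lower in YAP-M and 29.6% in YMdIDR against SVZ, and 9.61% are higher in YAP-M against YMdIDR.

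Genes with the most similar profile were sought among 13249 genes by Pearson r of log2(CPM + 1) over the 12 libraries, which share group differences and scaling, so the values are descriptive. Dlx1 was most like Egr3 (r = 0.972), Bag4 (0.969) and Tnfaip8l3 (0.966). Dlx2 was most like Sfmbt2 (r = 0.968), Mettl16 (0.961) and Zfp617 (0.941); Sfmbt2 averaged 3.57 CPM in YAP-M, 14.5 CPM in YMdIDR, 0.550 CPM in NSC-YAP and 5.22 CPM in SVZ, the same order of groups as Dlx2. Dlx5 was most like Ggct (r = 0.992), Kcng1 (0.990) and Tmem158 (0.988), and Dlx6 like Ggct (0.992) and Eml1 (0.991). Emx1 was most like Mkx (r = 0.983), Car7 (0.980) and Lct (0.979), and Emx2 like Naa15 (0.987), Car13 (0.984) and Adpgk (0.983). Otx2 was most like F5 (r = 0.962), Cfap126 (0.952) and Dnah9 (0.946), the last encoding a dynein of motile cilia. Lhx2 was most like Ctsf (r = 0.986), Fbxo2 (0.968) and Nfia (0.966), a factor of glial development that averaged 37.6 CPM in YAP-M, 21.8 CPM in YMdIDR, 194 CPM in NSC-YAP and 95.5 CPM in SVZ. Among the members themselves, Dlx1 had r = 0.233 with Dlx2 but 0.902 with Dlx6, and Emx2 had r = -0.887 with Lhx2.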

How the data were processed

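Mouse total RNA was sequenced from TruSeq libraries, per the labels' protocols; the submitters' processing notes name TopHat2 and build mm10. The deposited files hold raw whole-number read counts per gene made by the authors, with the counter, annotation release and strand setting not given in the sources used here, and each gene's length. The 53090 entries were summed by symbol (453 entries share one). Total counts were 20784130 to 25463303 per library, so 1 count is 0.0368 to 0.0489 CPM.

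The 12 libraries were grouped by title and fitted together with edgeR 4.0.16 (R 4.3.3): TMM scaling, a filter of 1 CPM or more in 2 or more libraries (18329 genes, 8 of 9 members), glmQLFit and glmQLFTest, 6 comparisons, Benjamini-Hochberg adjustment over all genes. The SE is the log2 fold change divided by the square root of its F value. CPM use TMM-scaled library sizes. Paralog ratios (0.5 counts added) were compared with exact permutation tests, 18 in all. Replicates differed by more than counting noise, least so the NSC-YAP pair (mean chi-square 4.44 per gene, where counting noise gives about 1). The scripts were tested on simulated data. Members and lists were chosen with earlier results of these data known. Named were all members, the antisense RNAs, in each of 7 lists the 3 called genes of smallest adjusted p in YAP-M against SVZ and against YMdIDR, and 3 most similar genes per member, apart from a few that are not reported here; Sox11, Dcx, Ttr, Folr1 and Yap1 were chosen after their values were seen, all but Yap1 from the marker lists. Replicate numbers were not used to pair the samples in the main fit (closing section). Alternatives covered filters, scalings, DESeq2 1.42.0, a replicate block, the call rule, symbol handling and each library left out.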

Additional observations from a re-analysis of the deposited data

Results flagged for a closer look

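With 4 libraries, YAP-M was the only group large enough for a test of a library far from its fellows (Dixon's test), and chance gives about 1 such library in 20 tests; 16 were made. YAP-M replicate 4 stood low in Dlx5 (0 CPM, against 0.442, 0.482 and 0.512 CPM in the other YAP-M libraries) and in the antisense RNA Dlx6os1 (0.0742 CPM, next lowest 0.370 CPM). As a consequence of the missing Dlx5 reads, its log2 ratio of Dlx6 to Dlx5 was 3.91, from 7 reads and none. YAP-M replicate 2 had 0 CPM of Otx2os1, with 1 read in each other YAP-M library.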

How the results depend on the processing

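Of 264 counts of members under the alternatives, 252 stayed within 1.5 times and 12 moved. In YAP-M against YMdIDR the 1 member higher became 0 when these groups were fitted alone (Dlx6 then failed the filter) and ranged between 1 and 3 when libraries were left out; the 1 lower ranged between 1 and 2. In YAP-M against NSC-YAP the 3 higher and the 3 lower each ranged between 1 and 3 when libraries were left out. In YMdIDR against SVZ the 2 higher ranged between 1 and 2. Of 1044 fold changes of members under alternatives, 1013 kept their side of the threshold, 25 lost a call and 6 gained one; 21 changed sign, all of them Dlx1 or Emx1 values that were not called. Over all genes, calls by adjusted p alone gave 3768 higher and 4199 lower in YAP-M against YMdIDR, 6326 lower in YAP-M against NSC-YAP, 5792 lower in YMdIDR against NSC-YAP and 5508 higher in NSC-YAP against SVZ; a minimum of 5 CPM gave 819 lower in YAP-M against YMdIDR. The cause was not tested. Without an NSC-YAP replicate, the lone library left is assumed to vary like the other groups.

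Of 15 pairs of same-numbered libraries, 4 had a correlation of their deviations over 0.1 (range -0.10 to 0.39). The highest was between replicates 2 of YAP-M and YMdIDR. Without values for differently numbered pairs, this cannot decide whether the numbers pair the samples. With a replicate block, members higher were 2 in YAP-M against YMdIDR (Dlx5 1.55, adjusted p = 0.0192) and 1 in YAP-M against NSC-YAP (Dlx2 0.92; Otx2 4.43, adjusted p = 0.0648). No other member call changed. Depth limits Gsx2, Dlx5, Dlx6 and Emx1 outside SVZ. With a pseudocount of 1 count, chosen after seeing the data, the ratios kept their direction. At these group sizes no ratio could pass the threshold after adjustment.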
